A study of Mus musculus with 4 samples.

Results

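The 10 genes described here encode heat shock proteins and the co-chaperones that work with them. They are Hspa1a, Hspa1b, Hspa8, Hsph1, Hsp90aa1, Hsp90ab1, Dnajb1, Dnaja1, Bag3 and Hspb1. They were taken by symbol from the 43629 gene identifiers of the count tables, and all 10 were found. The list was chosen by the counts of Hspa1a and Hspa1b, which had been seen to rise in this comparison, so the values below describe its members and no p-value is given for them. RNA was sequenced from 4 libraries of CD117+ hematopoietic stem and progenitor cells (HSPCs) of C57Bl/6 mice, 2 per group. The control cells were Chaf1b fl/fl and had received the empty retroviral vector MIGR1. The Chaf1b-deleted cells, labelled Chaf1b (-/-), had received MIGR1-Cre, and both groups were collected as sorted eGFP-positive cells 48 h after spinfection. Both groups were cultured in Stemspan SFEMII with SCF, IL6, IL3 and LDL. CHAF1B is a subunit of CAF-1, the complex that loads histones H3 and H4 onto newly replicated DNA. Cre came from the retrovirus and not from a transgene with a cell type-specific promoter. Only the Chaf1b-deleted cells received Cre, so Cre itself and the loss of Chaf1b cannot be told apart here. The methods give young adult mice of both sexes without tying them to libraries, and how many were pooled per library is not given in the sources used here.

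Heat shock proteins are molecular chaperones that hold, fold or release other proteins. An HSP70 protein binds exposed hydrophobic stretches and is driven through its ATP cycle by J-domain partners such as DNAJB1 and by nucleotide exchange factors such as HSPH1 and BAG3, while HSP90 proteins receive many clients from HSP70. Hspa8 and Hsp90ab1 are expressed in most cells without stress, whereas Hspa1a and Hspa1b are the classical stress-inducible HSP70 genes. Their induction by heat and other proteotoxic stress depends on HSF1, a transcription factor that binds repeated GAA units in alternating orientation, the heat shock element.

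The upstream sequences of the HSP70 pair and of Hspb1 are shown because these were the members with the lowest levels in control cells. Each is the 250 bases before the start site given by RefSeq for GRCm38.p6, on the strand of the gene. Capitals mark inverted GAA units, searched as GAANNTTC or TTCNNGAA on both strands. The windows lie at chr17:34972157-34972406 on the minus strand for Hspa1a, chr17:34959239-34959488 on the minus strand for Hspa1b and chr5:135887669-135887918 on the plus strand for Hspb1.
Hspa1a: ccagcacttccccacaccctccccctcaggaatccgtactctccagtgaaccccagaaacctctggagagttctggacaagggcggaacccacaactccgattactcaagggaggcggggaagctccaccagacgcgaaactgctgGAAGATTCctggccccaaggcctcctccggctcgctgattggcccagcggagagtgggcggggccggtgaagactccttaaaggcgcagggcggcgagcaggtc
Hspa1b: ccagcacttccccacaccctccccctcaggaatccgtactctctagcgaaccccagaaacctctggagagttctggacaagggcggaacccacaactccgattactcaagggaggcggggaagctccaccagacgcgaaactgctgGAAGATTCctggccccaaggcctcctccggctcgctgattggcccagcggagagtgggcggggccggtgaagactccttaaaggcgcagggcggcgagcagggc
Hspb1: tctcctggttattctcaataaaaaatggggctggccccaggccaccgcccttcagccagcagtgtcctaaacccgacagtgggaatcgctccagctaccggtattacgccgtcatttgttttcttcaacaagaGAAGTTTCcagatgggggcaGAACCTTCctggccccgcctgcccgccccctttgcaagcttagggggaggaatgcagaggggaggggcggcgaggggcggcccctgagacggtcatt

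The windows of Hspa1a and Hspa1b were identical at 247 of 250 bases, or 98.8%, and each held the same inverted pair at the same place. Hspb1 held 2 such pairs. RefSeq windows were found for 7 of the 10 members, and 5 of these 7 held a pair, namely Hspa1a, Hspa1b, Hsph1, Hspb1 and Dnaja1 (at 1 of its 3 start sites), against 12.8% of 32851 windows of the same length. That share is per window, whereas a member with several start sites was counted as holding a pair if any of its windows did. The pair was not found in the windows of Dnajb1 and Bag3. Neither was the 3-unit form GAANNTTCNNGAA or TTCNNGAANNTTC, which overlaps the 2-unit form, in any of the 7, where 0.466% of all windows held it. A match of letters is a description of the window and shows no binding.

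The counts on genes ranged from 18468637 to 25409926 per library, so that 3 counts corresponded to between 0.118 and 0.162 CPM (counts scaled to a common total on genes). The Chaf1b count, which checks the deletion, was 1825 and 1471 in the controls and 378 and 330 in the Chaf1b-deleted libraries (log2 fold change -2.01, SE 0.245, adjusted p = 0.033, edgeR quasi-likelihood test with Benjamini-Hochberg adjustment over all genes). The adjusted p was 0.0651 when 10 counts were required in every library. All 8 HSPC markers were detected, with summed levels of 1067 to 1205 CPM, but genes of 6 neutrophil markers summed to between 44970 and 65000 CPM, and T and NK cell markers stayed at or below 0.977 CPM in sum. Chaf1b-deleted replicate 1 stood apart from the other 3 libraries: Xist was at 336 CPM against 1.14 to 1.30, 4 Y-linked genes summed to 0.127 CPM against 306 to 324, and 8 interferon-stimulated genes to 1276 CPM against 97.7 to 138. Xist and the Y-linked genes marked the cells of Chaf1b-deleted replicate 1 as female and those of the other 3 libraries as male. The 2 Chaf1b-deleted libraries therefore came from different mice. Both controls were male, so sex and deletion cannot be told apart in Chaf1b-deleted replicate 1. Whether the 2 controls were separate cultures or animals is not stated, so the tests measure the spread between these libraries. In bulk RNA, more cells of a kind and more RNA per cell cannot be told apart.

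Genes were called at a change of 1.5-fold or more and an adjusted p under 0.05. Of the 9 members that passed the low-count filter, 2 met these limits as higher after deletion, Hspa1a and Hspa1b, and 0 as lower, against 0.37% and 0.00606% of all 16500 genes tested. The rise of Hspa1a and Hspa1b is what chose the list, so their calls were fixed by that choice and are no test, and nothing is read from the count. Hspa1a passed the filter only through the Chaf1b-deleted libraries. In 4 of the 9 members, Hspa1a, Hspa1b, Dnajb1 and Bag3, both Chaf1b-deleted libraries lay above both controls, and in 1, Hspa8, both lay below. For all genes tested these shares were 21.4% and 22.9%.

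Hspa1a encodes one of the inducible HSP70 proteins and lies at chromosome 17, 35106144-35109069, on the minus strand (mm9). Its counts were 10 and 5 in the controls and 249 and 190 in the Chaf1b-deleted libraries. Scaled to depth, these were 0.440 CPM (95% Wilson interval 0.239 to 0.810) and 0.197 CPM (0.0841 to 0.461) against 10.6 CPM (9.34 to 11.98) and 10.3 CPM (8.93 to 11.9). The control values were near the level of 3 counts, and the groups were separated by a gap of 23.4-fold between the lower deleted and the higher control library. The controls differed from each other by 2.24-fold and the Chaf1b-deleted libraries by 1.03-fold. The group means were 0.318 ± 0.172 and 10.4 ± 0.205 CPM (SD, n = 2), a ratio of 32.8 and a fitted log2 fold change of 5.05 (SE 0.519).

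Hspa1b, which encodes the other inducible HSP70 protein, lies at chromosome 17, 35093381-35096183, also on the minus strand, 9960 bases from Hspa1a. It had 11 and 15 counts in the controls and 453 and 326 counts after deletion, or 0.484 and 0.590 CPM against 19.2 and 17.7 CPM. Here too the groups did not overlap, and the lower deleted library was 29.9-fold above the higher control. The means were 0.537 ± 0.0753 and 18.4 ± 1.13 CPM (SD, n = 2), a ratio of 34.4 and a log2 fold change of 5.12 (SE 0.386). By fitted log2 fold change, Hspa1b ranked 18 and Hspa1a 21 from the top of the 16500 genes tested.

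Both genes were at similar levels in the Chaf1b-deleted libraries, of which replicate 1 stood apart in other genes. Without Chaf1b-deleted replicate 1, the log2 fold change was 4.92 for Hspa1a and 4.94 for Hspa1b, and without replicate 2 it was 5.19 and 5.29. Without control replicate 1, which had the higher Hspa1a count, Hspa1a stood at 5.72, and without control replicate 2 at 4.56. With the requirement of 10 counts in every library, Hspa1a was no longer tested because control replicate 2 had 5.

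The pair shares most of its sequence. Of the exonic stretches of 31 bases, 64.5% of those of Hspa1a occur in Hspa1b and 67.5% of those of Hspa1b occur in Hspa1a, and reads placed in more than 1 location were not counted. The counts therefore come from what remains, and which of the genes carried the change is uncertain where a read was misplaced. Their sum avoids this split and was 0.924 and 0.787 CPM in the controls and 29.8 and 27.9 CPM in the Chaf1b-deleted libraries. Hspa1b was 1.1 and 3 times Hspa1a in the controls, on 10 and 5 counts of Hspa1a, and 1.82 and 1.72 times after deletion. Gm20481, annotated on the opposite strand across Hspa1a, had 0 counts in every library. The strand setting of the counting is not given, so reads in this overlap may have been left out as ambiguous.

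**Figure D1:**
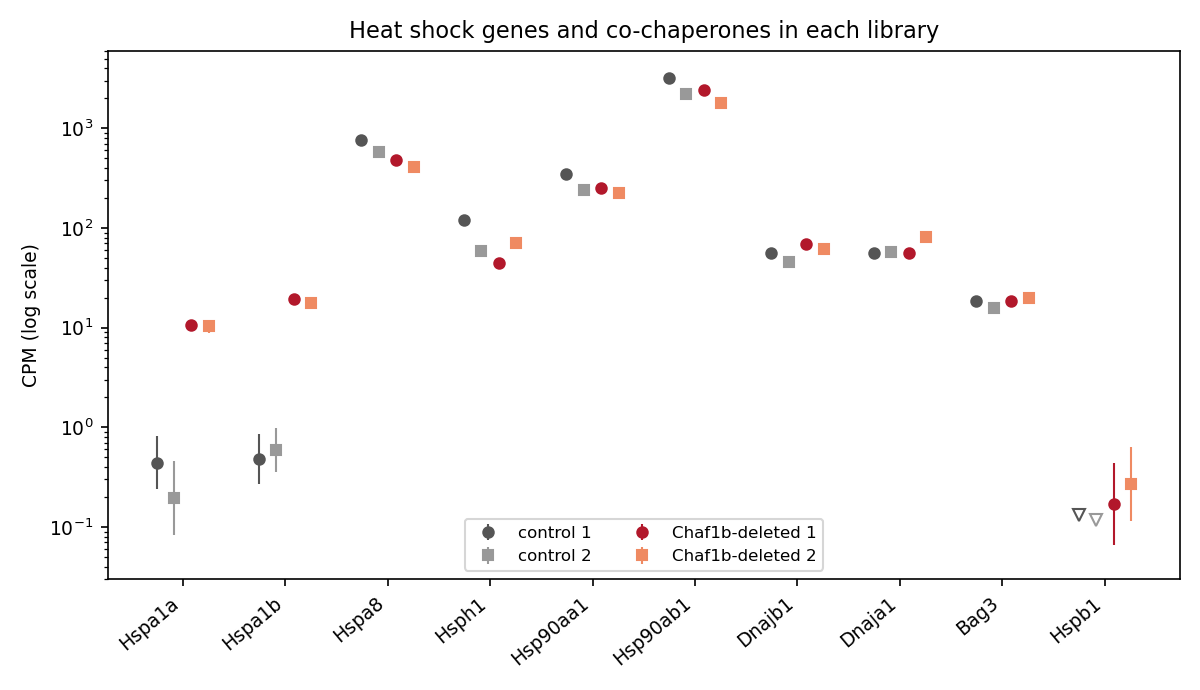
Level of each of the 10 genes in each library in CPM on a log axis, with 95% Wilson intervals that cover counting error only; open triangles stand at the level of 3 counts for libraries with a count of 0. Hspa1a and Hspa1b lie below 1 CPM in both controls and between 10.3 and 19.2 CPM in both Chaf1b-deleted libraries, while the other tested members have ratios of means between 0.644 and 1.29.

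Hspa8 encodes HSC70, the constitutive HSP70 protein that also uncoats clathrin vesicles, at chromosome 9, 40609067-40613283, plus strand. It was measured at 765 and 573 CPM in the controls and 481 and 412 CPM after deletion. Both Chaf1b-deleted values were below both controls. The ratio of the means was 0.667, and the controls differed by 1.34-fold (log2 fold change -0.55, SE 0.272). Of its 31-base exonic stretches, 43.5% occur elsewhere, most of them in Gm15459, and it overlaps small nucleolar RNA genes.

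Hsph1 encodes HSP110, a nucleotide exchange factor for HSP70, at chromosome 5, 150416862-150438951, minus strand. It was at 120 and 58.1 CPM in the controls and 44.7 and 70.1 CPM after deletion. The groups overlapped, and the controls differed by 2.07-fold (log2 fold change -0.63, SE 0.354). Without control replicate 1 the log2 fold change was -0.01, so the lower mean rested on that library.

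The cytosolic HSP90 genes are Hsp90aa1, the more inducible form, at chromosome 12, 111928815-111940938, minus strand, and Hsp90ab1, the more constitutive form, at chromosome 17, 45704724-45710220, minus strand. Hsp90aa1 was at 350 and 243 CPM in the controls and 252 and 222 CPM after deletion. Hsp90ab1 was the most abundant member, at 3168 and 2229 CPM in the controls and 2450 and 1807 CPM after deletion. In both genes the groups overlapped, with control replicate 1 the highest library. The log2 fold changes were -0.29 (SE 0.265) and -0.30 (SE 0.349). Without control replicate 1 they were 0.00 and -0.02. For Hsp90aa1, 62.4% of the 31-base exonic stretches occur elsewhere, and 19.2% for Hsp90ab1.

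The J-domain proteins deliver clients to HSP70 and start its ATP hydrolysis. Dnajb1, which encodes HSP40 and lies at chromosome 8, 86132074-86135801, plus strand, was at 56.0 and 46.0 CPM in the controls and 69.0 and 62.2 CPM after deletion. Its groups did not overlap, by 1.11-fold between the nearest libraries, and its log2 fold change was 0.39 (SE 0.229). Dnaja1, at chromosome 4, 40669183-40684182, plus strand, was at 56.7 and 57.3 CPM in the controls and 56.6 and 81.5 CPM after deletion. Only the second Chaf1b-deleted library lay above the controls, and the log2 fold change was 0.29 (SE 0.212). Dnaja1 overlaps other annotated genes, and 19.3% of its stretches occur elsewhere.

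Bag3 encodes an exchange factor that links HSP70 to small heat shock proteins and to selective autophagy, and lies at chromosome 7, 135667097-135690491, plus strand. It was at 18.3 and 15.9 CPM in the controls and 18.4 and 20.0 CPM after deletion. The groups were separated by 1.01-fold, less than the 1.16-fold between the controls (log2 fold change 0.19, SE 0.245). All of its 31-base stretches are unique.

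Hspb1, which encodes the small heat shock protein HSP25, lies at chromosome 5, 136363789-136365433, plus strand. It had 0 counts in both controls and 4 and 5 counts in the Chaf1b-deleted libraries, and did not pass the filter. A count of 0 was set at the floor of 3 counts, 0.132 and 0.118 CPM in the controls, against 0.1699 and 0.2707 CPM measured after deletion. Against this floor of 3 counts per library, the measured mean after deletion was 1.76-fold higher. The lower Chaf1b-deleted library was 1.29-fold above the higher control floor. These ratios leave out the counting error of the 4 and 5 counts. The upper 95% Wilson limits of the controls were higher than the floor, at 0.169 and 0.1512 CPM, the first about level with the lower Chaf1b-deleted library. At this depth the intervals of single Chaf1b-deleted libraries overlapped these limits. Of the stretches of Hspb1, 65.0% occur elsewhere, most of them in the pseudogene Hsp25-ps1.

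To compare levels between genes, CPM was divided by the kilobases of exonic sequence in unique 31-base stretches. The divisor does not allow for reads left out as ambiguous where genes overlap, as may hold for Hspa1a. In the controls the order from the top was Hsp90ab1, Hspa8, Hsp90aa1, Dnajb1, Hsph1, Dnaja1, Bag3, Hspa1b, Hspa1a and Hspb1, the last at 0. Hsp90ab1 had 1223 CPM per unique kb (libraries 1011 and 1436), Hspa8 289 (248 and 331) and Hsp90aa1 219 (180 and 259). The ranges of Hspa8 and Hsp90aa1 overlapped, while those of Hsph1 (8.94 and 18.5) and Dnaja1 (8.408 and 8.498) lay close without overlap. Hspa1b followed at 0.615 (0.554 and 0.676) and Hspa1a at 0.325 (0.201 and 0.449), without overlap between these library values. They rest on 5 to 15 counts, and in both controls the 95% Wilson intervals of the 2 genes in CPM overlapped, so their order is uncertain.

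After deletion the upper 4 genes kept their order, with Hsp90ab1 at 965 CPM per unique kb, Hspa8 at 193, Hsp90aa1 at 175 and Dnajb1 at 28.3, and the ranges of Hspa8 and Hsp90aa1 again overlapped. Hspa1b moved from position 8 to 5, at 21.1 (20.22 and 22.04), and Hspa1a from 9 to 6, at 10.7 (10.5 and 10.8), a level shared with Dnaja1 (8.40 and 12.1) and Hsph1 (6.87 and 10.8), whose ranges held it. On this scale the pair together amounted to 0.151% and 0.172% of Hspa8 in the controls and to 7.74% and 8.48% after deletion. Hspa8 was above the pair on this scale in all 4 libraries.

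The genes around the pair were examined because Hspa1a and Hspa1b are neighbours in the major histocompatibility region of chromosome 17. Within 100 kb of either gene, 24 other genes were annotated and 17 were tested. None was called, the lowest adjusted p being 0.378, and their log2 fold changes ranged from -0.59 for Zbtb12 to 1.52 for D17H6S56E-3, with a median of 0.06. D17H6S56E-3 and Ng23 had unadjusted p of 0.0411 and 0.0455, and 12.3% of all genes tested were under 0.05.

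Hspa1l, another HSP70 gene known for its expression in testis, starts 578 bases from Hspa1a. It had 16 and 9 counts in the controls and 4 and 18 counts after deletion, with overlapping groups (log2 fold change 0.06, SE 0.855, adjusted p = 0.988). With so few counts, its standard error leaves a wide range. The abundant neighbours Ehmt2, a histone H3K9 methyltransferase gene, and Neu1, a lysosomal sialidase gene, stood at -0.14 (SE 0.201) and 0.02 (SE 0.232). Vars, for valyl-tRNA synthetase, was at 0.30 (SE 0.221) and Lsm2, for an RNA-binding protein, at -0.34 (SE 0.287).

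**Figure D2:**
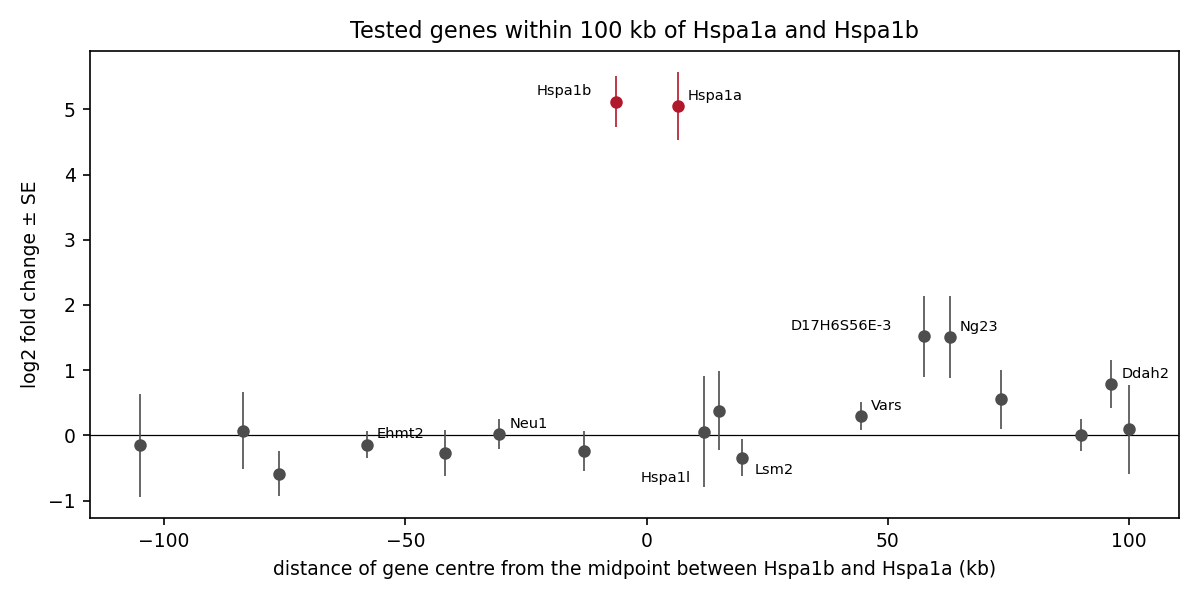
Fitted log2 fold change, Chaf1b-deleted against control, with SE, of Hspa1a and Hspa1b (red) and the 17 tested genes within 100 kb of either (grey), by the distance of the gene's centre from the midpoint of the pair in kb. The pair lies above 5 and the other genes between -0.59 and 1.52.

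The profiles most like the mean of Hspa1a and Hspa1b over the 4 libraries were sought among 13916 other tested genes with a mean of at least 1 CPM, by the root mean square difference of centred log2(CPM + 0.5). The nearest was Mal2, which encodes a membrane trafficking protein of epithelia, at a difference of 0.0971. It had 0 and 1 counts in the controls and 173 and 135 after deletion. H1fx, the linker histone H1X gene, followed at 0.233, with 0.396 and 0.748 CPM against 18.8 and 17.2 CPM, a level close to that of Hspa1b in every library. Slc5a5, for the iodide transporter (0.363), Fscn1, for the actin-bundling protein fascin (0.404), and Apol7c (0.422) came next. The fitted log2 fold change of Mal2 was 8.15 (SE 0.748), above the 5.05 of Hspa1a and the 5.12 of Hspa1b. Its control levels, 0 and 0.039 CPM, were below the 0.5 CPM added before the logarithm. Its small difference therefore does not mean an equal fold change. For Fscn1 the log2 fold change was 3.72 (SE 0.372), and for Slc5a5 5.09 (SE 0.531). These genes were picked for their likeness in the same libraries, so their fold changes are a description as well.

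Beyond the members, 82 other chaperone and heat shock response genes in 8 lists were examined, of which 76 were tested. None was called in either direction by edgeR's quasi-likelihood test, while 6 had an unadjusted p under 0.05, as 12.3% of all genes tested did. Of the 76, 33 lay above 0 and 43 below, with a median log2 fold change of -0.06 beside -0.03 over all genes tested. Both Chaf1b-deleted libraries were above both controls for 13 of them and below for 22, shares that were 21.4% and 22.9% over all genes tested. By edgeR's exact test 2 of them were called higher, and by DESeq2 1.

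Among the other HSP70 and HSP110 genes, 0 of 11 were called, with a median of 0.15. The range ran from Hspa4l, a relative of HSP110, at -0.59 (SE 0.210, adjusted p = 0.309), and Hspa9, the mitochondrial HSP70, at -0.50, to Hspa12b at 0.49 and Hspa12a at 0.73 (adjusted p = 0.492). For the other HSP90 chaperones and co-chaperones, 0 of 15 were called and 11 lay below 0, with a median of -0.30. Ppid, which encodes a cyclophilin that binds HSP90, was at 147 and 108 CPM in the controls and 68.2 and 82.5 CPM after deletion. Its groups did not overlap, but it missed the threshold (log2 fold change -0.74, SE 0.228, adjusted p = 0.242). Chordc1 stood at -0.39, Fkbp5 at 0.22 and Unc45a at 0.37.

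None of 18 other J-domain genes was called, and their median was 0.01. Dnajb9, whose product serves the HSP70 of the endoplasmic reticulum, was at 34.3 and 31.4 CPM in the controls and 53.5 and 53.1 CPM after deletion, without overlap and without passing the test (log2 fold change 0.73, SE 0.210, adjusted p = 0.219). Dnajb11 stood at 0.27, Dnajc8 at -0.44 and Dnajc21 at -0.46. The 9 other HSP70 co-chaperones and exchange factors had a median of -0.03 and no call, from Bag2 at -0.33 and St13 at -0.23 to Bag1 at 0.13 and Bag6 at 0.38. All 10 chaperonin genes lay below 0 with every scaling, with a median of -0.24 and no call, from Hspd1, for HSP60, at -0.38 and Cct5 at -0.35 to Cct8 at -0.16 and Cct4 at -0.13. The shared direction depended on single libraries. Without control replicate 1, Hspd1 stood at 0.20, Cct8 at 0.14 and Cct4 at 0.034. Without Chaf1b-deleted replicate 2, Cct8 stood at 0.045 and Cct4 at 0.044.

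Of 9 small heat shock protein genes other than Hspb1, 5 were tested, none was called, and 4 had at most 3 counts in every library. Hspb8, whose product works with BAG3, had 1 and 3 counts in the controls and 14 and 9 after deletion (log2 fold change 2.68, SE 0.857, adjusted p = 0.261). It passed the low-count filter only through the Chaf1b-deleted libraries. Hspb6 was at 13.6 and 12.04 CPM in the controls and 7.31 and 10.4 CPM after deletion (log2 fold change -0.53, SE 0.299, adjusted p = 0.542). Hspb11 stood at -0.36 and Hspb9 at 0.23.

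The heat shock factors themselves were not called. Hsf1, the factor that drives the heat shock response, was at 35.1 and 28.9 CPM in the controls and 22.7 and 23.3 CPM after deletion (log2 fold change -0.45, SE 0.229, adjusted p = 0.494). Hsf2 was at 20.3 and 19.4 CPM against 11.5 and 14.8 CPM (-0.58, SE 0.251, adjusted p = 0.414). For both, the 2 Chaf1b-deleted libraries lay below the 2 controls. Hsbp1, an inhibitor of HSF1, stood at 0.04 and the scarce Hsf4 at 0.81.

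Of 16 other known targets of HSF1, 0 were called, 6 lay above 0 and 10 below, and the median was -0.21. Of these genes 12 belong to the chaperone lists above as well, so their count is not independent of those. Serpinh1, which encodes the collagen chaperone HSP47, had 0 and 18 counts in the controls and 277 and 152 counts in the Chaf1b-deleted libraries. Both were above both controls, but the controls themselves differed and the adjusted p was 0.113 (log2 fold change 4.81, SE 0.991). Without control replicate 1, the library at 0, the log2 fold change was 3.86. Serpinh1 would not have passed the low-count filter on its control counts. Ier5, an HSF1 target whose product acts back on HSF1, was singled out after its values were seen. It was at 38.5 and 33.3 CPM in the controls and 104 and 79.5 CPM after deletion, without overlap, and missed the threshold with an adjusted p of 0.084 in the quasi-likelihood test (log2 fold change 1.40, SE 0.258). None of the exonic stretches of Serpinh1 and Hspb8 occur elsewhere.

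**Figure D3:**
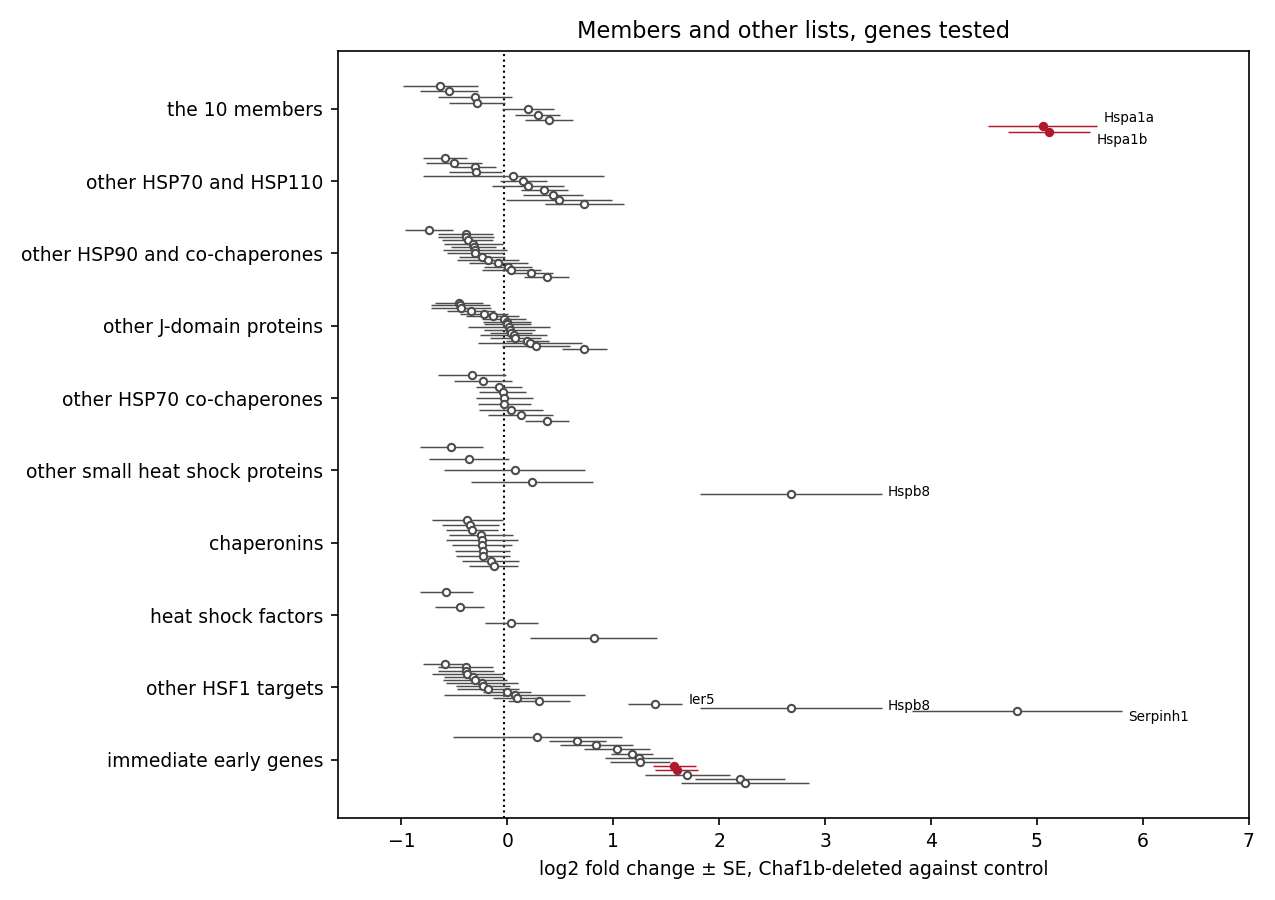
Fitted log2 fold change with SE, Chaf1b-deleted against control, of each tested gene in the members, the 8 other chaperone lists and the immediate early genes; filled red points were called, open points were not, and the dotted line is the median of all genes tested, -0.03. Only Hspa1a and Hspa1b among the members, and Jun and Fosb among the immediate early genes, were called, and Serpinh1 and Hspb8 have wide standard errors; genes in 2 lists are drawn in both.

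Immediate early genes, which respond within minutes to growth factors, stress and the handling of cells, were examined beside the HSP70 pair. All 12 lay above 0 with a median log2 fold change of 1.25, and 2 were called higher, Jun at 1.60 (SE 0.206) and Fosb at 1.58 (SE 0.206), both with an adjusted p of 0.0367 in edgeR's quasi-likelihood test. Both Chaf1b-deleted libraries were above both controls for 11 of the 12, the exception being Egr2, which stood at -0.92 without Chaf1b-deleted replicate 1. Of all 16500 genes tested, 7834 lay above 0 and 0.37% were called higher. Both Chaf1b-deleted libraries were above both controls for 21.4% of them. Their summed level was 526 and 754 CPM in the controls and 1860 and 1334 CPM after deletion. No immediate early gene was called when 10 counts were required in every library or with DESeq2's size factors. The part of these genes' levels in the change of Hspa1a and Hspa1b was not tested.

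The 8 interferon-stimulated genes summed to 97.7 and 114 CPM in the controls, 1276 CPM in Chaf1b-deleted replicate 1 and 138 CPM in replicate 2. The HSP70 pair stood at 29.8 and 27.9 CPM in these 2 Chaf1b-deleted libraries. For 6 of the 8, both Chaf1b-deleted libraries were above both controls, beside 21.4% of all genes tested. The part of the interferon-stimulated genes in the change of Hspa1a and Hspa1b was not tested. Among markers of other cells, 6 megakaryocyte markers summed to 101 and 100 CPM in the controls and 153 and 267 CPM after deletion, 6 B cell markers to 17.5 and 21.4 against 33.2 and 28.1 CPM, and 6 stromal and endothelial markers to 241 and 245 against 290 and 293 CPM. No gene of these 3 lists was called. Pecam1 made up most of the stromal and endothelial sums, at 216 and 233 against 267 and 248 CPM. Of the rest, Col1a2, Pdgfrb and Cxcl12 overlapped between the groups, while Col1a1 and Cdh5 were higher in both Chaf1b-deleted libraries. The macrophage sums overlapped (209 and 569 against 549 and 367 CPM), as did those of mast cells and basophils (844 and 538 against 736 and 731) and of erythroid cells (51.8 and 29.8 against 26.1 and 35.8). The neutrophil sums overlapped as well (44970 and 52450 against 65000 and 48780 CPM). Of these markers, Ltf and Mmp8 were above both controls in both Chaf1b-deleted libraries (log2 fold changes 0.94 and 1.69), the others overlapped, and none was called. Of the HSPC markers, Flt3 alone was called, at 4.66 and 5.31 CPM in the controls and 19.3 and 22.7 CPM after deletion (log2 fold change 2.09, SE 0.281, adjusted p = 0.0383). The part of these cells in the level of Hspa1a and Hspa1b was not tested.

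**Figure D4:**
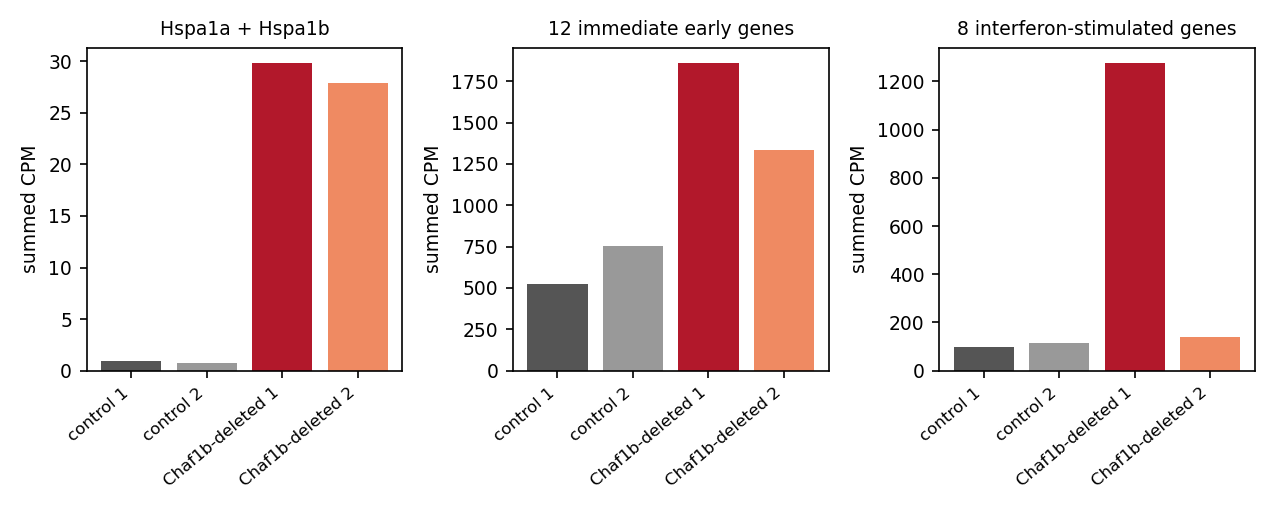
Summed CPM in each library of Hspa1a and Hspa1b, of the 12 immediate early genes and of the 8 interferon-stimulated genes, each panel with its own axis from 0. The HSP70 pair is at 29.8 and 27.9 CPM in the Chaf1b-deleted libraries, the immediate early genes at 1860 and 1334 CPM, and the interferon-stimulated genes at 1276 CPM in replicate 1 but 138 CPM in replicate 2.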

How the data were processed

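RNA was measured in 4 libraries of sorted primary mouse HSPCs, 2 control and 2 Chaf1b-deleted, grouped by the labels. Per the labels, libraries were prepared from ribosome-depleted total RNA with a stranded kit. The authors used STAR for alignment to mm9 and HTSeq-count for the reads of each gene. What they deposited are raw counts, with a table for each library. The annotation release and the strand setting of the counting are not given in the sources used here. A symbol was found for 33068 of 43629 identifiers in the annotation of NCBIM37, which is mm9 under its Ensembl name, and named genes held 96.9% to 98.4% of each library's counts. Coordinates refer to that build except for the upstream sequences. Reads without a feature, ambiguous and multiply placed reads were kept out of totals and tests; reads without a feature were 35.8% to 48.3% of the uniquely aligned ones.

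Differential expression was computed with edgeR 4.0.16 and limma 3.58.1 in R 4.3.3, with TMM normalization, the expression filter at a minimum count of 10 and glmQLFit and glmQLFTest without covariates, two-sided, over 16500 genes. Genes were called at 1.5-fold or more with a Benjamini-Hochberg adjusted p under 0.05. The script was tested on simulated data. Library totals of 18468637 to 25409926 set a floor of 3 counts at 0.118 to 0.162 CPM. Reads carry no molecular identifiers, so intervals and floors cover counting error only. Within groups the libraries differed by more than sampling noise (chi-square per degree of freedom 46.4 for the controls and 69.8 for the Chaf1b-deleted libraries), so none was taken for a duplicate.

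The members and lists were chosen with earlier results of these data known. The genes named are the 10 members, Chaf1b, in each pathway list the calls and the 2 genes with the largest and the 2 with the smallest log2 fold change, genes within 100 kb of Hspa1a or Hspa1b, and the 5 genes with the most similar profile. Ier5, Jun, Fosb, Egr2, Flt3, Xist and the summed lists of Y-linked and interferon-stimulated genes lie outside the pathway part of this rule and were added with values known. Alternatives were other normalizations, filters and tests (DESeq2 1.42.0 among them), the replicate number as a block and leaving out each library.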

Additional observations from a re-analysis of the deposited data

How the results depend on the processing

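The log2 fold changes of Hspa1a and Hspa1b stayed between 4.56 and 5.72 and between 4.94 and 5.29 without 1 library at a time, which is a description of the genes that chose the list. With 10 counts required in every library 1 member was called, Hspa1b, since Hspa1a was not tested, and the replicate block also left 1, Hspa1b. The same-numbered libraries share only a number (correlation of their deviations 0.0133), and the block gave 14 genes higher, 0 lower, 0 immediate early genes and Chaf1b at -1.98 (adjusted p = 0.0592). Counts over all genes moved more. From 61 higher and 1 lower, they went to 3 and 0 with 10 counts in every library (Chaf1b -2.001, adjusted p = 0.0651), 471 and 32 with DESeq2, 537 and 37 with edgeR's exact test, 808 and 79 without a filter, 27 higher with DESeq2's size factors and 30 higher with library size alone. Leaving out a library gave 125 to 331 higher and 6 to 42 lower, the lone library of a group being assumed to vary like the others. Other chaperone genes called higher went from 0 to 1 with DESeq2, 2 with the exact test, 2 without a filter and 0 to 2 without a library. Immediate early genes called higher went from 2 to 0 with 10 counts in every library or DESeq2's size factors, 8 with DESeq2, 8 with the exact test, 10 without a filter and 4 to 10 without a library. The cause of these moves was not tested. Several genes that were not called changed sign. With library size alone Neu1 was at -0.016, Clic1 at -0.033 and Hsbp1 at -0.0014, and under the block Hspa1l at -0.10 and Clic1 at -0.017. Without a library the ranges were -0.18 to 0.63 for Dnajb11, -1.46 to 0.80 for Hspa1l, -0.24 to 1.06 for Msh5, -0.25 to 0.26 for Neu1, -0.28 to 0.26 for Clic1, -0.31 to 0.044 for Cct4, -0.49 to 0.068 for St13, -0.41 to 0.14 for Cct8, -0.79 to 0.20 for Hspd1, -0.34 to 0.49 for Bag1, -0.28 to 0.31 for Hsbp1, -0.92 to 2.03 for Egr2, -0.68 to 0.11 for Bag2, -0.33 to 0.44 for AU023871, -0.14 to 0.78 for Gm10501, -0.0057 to 0.87 for Hspa12b, -0.90 to 0.37 for Cfb and -0.63 to 0.26 for 1110038B12Rik. Likewise Hsp90aa1 (-0.54 to 0.00), Hsp90ab1 (-0.66 to 0.00) and Hsph1 (-1.08 to -0.01) depended on which library was left out. The scalings moved the median of all genes from -0.05 to -0.01 on the log2 scale. Depth limits Hspb1, Hspb8, Hspa1l and the control level of Hspa1a.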
